A study of Arabis alpina with 12 samples.

Results

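Wild-type shoot apices and wild-type leaves of Arabis alpina, a perennial species related to Arabidopsis, were compared by RNA sequencing of polyadenylated RNA. The members are the 6 libraries labelled wild type, 3 from apices and 3 from leaves, of 12 libraries in the series; the other 6 come from the pep1-1 mutant. All wild-type (WT) plants belong to the accession Pajares, carry no mutant allele per the labels, and were grown on soil in long days at 22 °C with no other treatment. Per the sample labels they were 2 weeks old and were harvested 8 h after lights on (ZT8); the series design text gives an age of 10 days. The pep1-1 plants have the same background, age and growth conditions, and PEP1 is the orthologue of FLC, a repressor of flowering in Arabidopsis. The labels do not say whether a library holds 1 plant or several, or whether replicates were grown separately. Every p-value therefore refers to the spread among the libraries used alone, which may be technical. Unless stated otherwise, tests of single genes between the WT organs used a spread estimated over all 12 libraries, pep1-1 included.

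The shoot apex holds the shoot apical meristem, the group of dividing cells from which leaves and flowers arise, together with the young leaf primordia around it. Leaves are mainly expanded green cells that carry out photosynthesis, and transcripts of photosynthesis genes are known to be very abundant in green tissue. A dissected apex also carries leaf tissue, so in bulk samples a difference between organs is a difference between mixtures, and fewer cells of a type cannot be told apart from less RNA per cell.

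The files hold read counts per annotated transcript and pair no identifier with a gene name. The defining markers of meristem and leaf could therefore not be looked up, the organs were not checked against them, and every direction below rests on the labels. Counted reads, with 1 transcript row per gene, ranged from 19746210 to 33665939 in apex and from 21841331 to 38819193 in leaf. The libraries split by organ: across the genes tested, log2 expression correlated at 0.985 to 0.988 within apex, at 0.986 to 0.992 within leaf, and at 0.858 to 0.889 between an apex and a leaf library. These correlations are across genes, which are not independent replicates. Between libraries of one organ the chi-square of the counts, per degree of freedom, was 5.38 to 24.1, which is more than sampling of reads gives, and none repeats another. The common biological coefficient of variation, the spread between replicates beyond counting noise, was 12.6% in apex and 11.8% in leaf.

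Most genes differed between the organs. The numbers each way were nearly equal with the TMM scaling used here, a balance that depended on the scaling as given below. The differences were not built alike. Higher levels in apex reached into the most abundant genes of the libraries, whereas the near-absence of a transcript in the other organ was counted more often for genes higher in leaf. Of 23517 genes tested, 15300 passed an adjusted p under 0.05 (edgeR quasi-likelihood test with Benjamini-Hochberg adjustment), which is 65.1% of the genes. Of these, 7554 were higher in apex (32.1% of genes tested) and 7746 were higher in leaf (32.9%). The replicates of the organs did not overlap for 16707 genes (71.0%), among them 14893 of those past the threshold.

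Fold sizes differed between the directions with TMM factors. The median size of a difference past the threshold was 1.01 on the log2 scale for genes higher in apex, with quartiles of 0.58 and 1.76. For genes higher in leaf it was 0.81, with quartiles of 0.50 and 1.44. Fold changes shifted by a median of -0.55 with library totals alone and -0.13 with upper-quartile factors. The median sizes are not given under those scalings. Differences of at least 2-fold were found for 3807 genes in the apex direction and 3071 in the leaf direction, together 29.2% of the genes tested. This order depended on scaling: the counts were 3391 and 3614 with upper-quartile factors and 2287 and 6766 with library totals alone. At least 4-fold differences were found with TMM factors for 1518 and 1142 genes, together 11.3%. With TMM factors, differences reached 16-fold or more in 280 apex genes and 379 leaf genes. A fold against an organ with 0 reads is only a lower bound; with such genes set at the bound that 3 reads over its 3 libraries would give, the counts at 16-fold were 277 and 313, and the medians were 1.01 and 0.81 as before. In each direction the genes at least 4-fold higher held a very different part of the reads. The 1518 apex genes took 30.1% ± 1.27 of the reads in apex and 6.07% ± 0.342 in leaf (SD, n = 3 each). The 1142 leaf genes took 3.12% ± 0.374 of the reads in leaf and 0.226% ± 0.0202 in apex. With TMM factors, the genes at least 4-fold higher in leaf were thus fewer than those in the apex direction. They also held a smaller part of the reads of their own organ. Among genes past the threshold, 118 higher in leaf had 0 reads in all 3 apex libraries, and 11 higher in apex had 0 reads in all 3 leaf libraries.

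**Figure D1:**
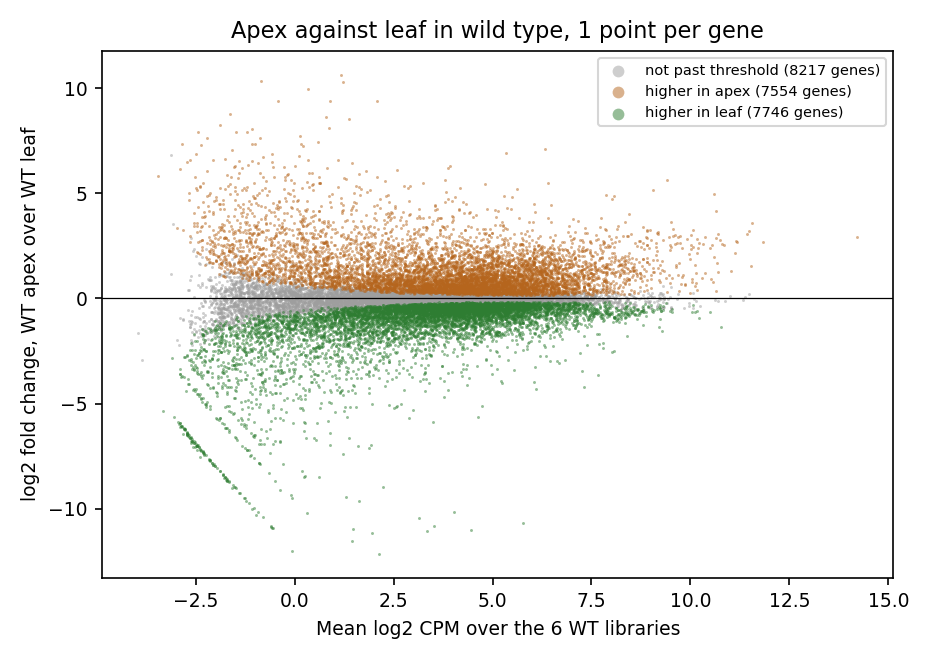
Each point is a gene; the horizontal axis is its mean log2 CPM (count scaled to library size) over the 6 WT libraries and the vertical axis its log2 fold change, WT apex over WT leaf. Orange points are the 7554 genes higher in apex, green points the 7746 higher in leaf and grey points the 8217 that did not pass; the diagonal green lines at the lower left are genes with 0 or few apex reads, whose fitted fold change depends on the fit's small prior count.

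For the 8217 genes that did not pass the threshold, the width of the interval says how alike the organs may be. The 95% interval of the fold change lay within 2-fold either way for 6581 of them (80.1%) and reached past 2-fold for 1636. In a stricter group of 1793 genes the interval lay within 0.32 on the log2 scale either way, and 24 of these passed the threshold with small differences. A missed threshold alone was not read as equal expression.

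The direction of the differences depended on the level of the gene. Levels are mean log2 CPM over the 6 WT libraries, where CPM is the count scaled to the size of the library. Below a level of 0, 729 genes were higher in apex and 999 in leaf, so that apex genes made up 42.2% of those past the threshold. Their share was 43.3% at levels from 0 to 2, 44.5% from 2 to 4 and 52.8% from 4 to 6. It was 62.2% from 6 to 8, 65.2% from 8 to 10, and 86.5% at 10 and over, where 45 genes were higher in apex and 7 in leaf. At least 2-fold differences were ordered alike: 549 apex genes stood against 127 leaf genes at levels from 6 to 8, 161 against 11 from 8 to 10, and 36 against 1 at 10 and over.

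The share of genes past the threshold was 55.1% of 3136 genes under a level of 0, 76.3% from 6 to 8, 73.0% from 8 to 10 and 81.2% of 64 genes at 10 and over. The median SE of the fold change was 0.46 on the log2 scale under 0, 0.14 from 2 to 4, 0.098 from 4 to 6 and 0.13 from 8 to 10. The smallest size called was 0.61 under 0, 0.19 from 2 to 4, 0.15 from 4 to 6 and 0.32 at 10 and over. The median size over all genes of a level, called or not, was largest at both ends, at 1.26 under 0, 0.46 from 4 to 6 and 1.45 at 10 and over. Low genes had wide errors, but genes at 10 and over had a median SE of 0.14 and their median log2 fold change was 1.43 towards apex.

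**Figure D2:**
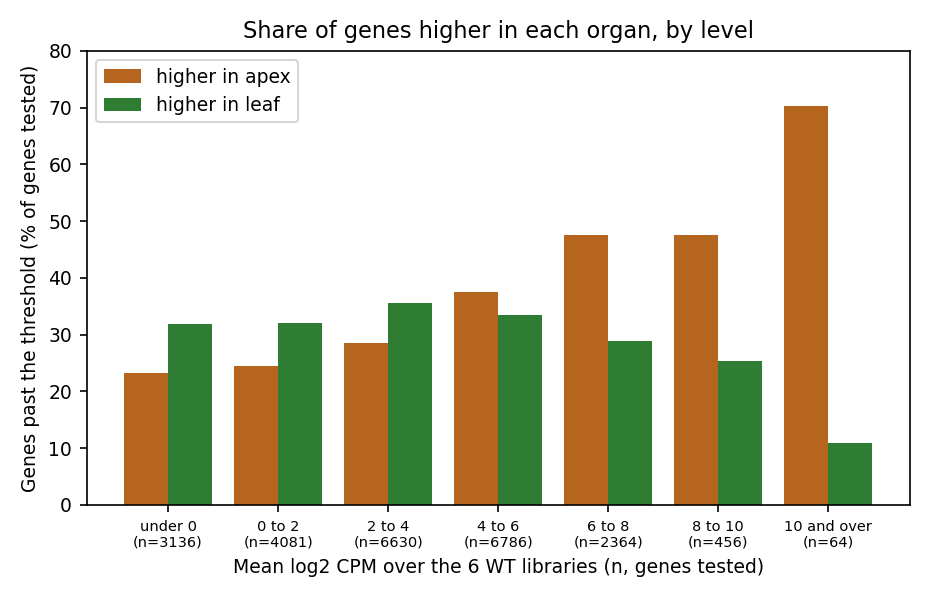
Bars give the genes past the threshold as a percentage of the genes tested at each level of mean log2 CPM, in orange for genes higher in apex and in green for genes higher in leaf, with the number tested under each pair. Under a level of 0 the bars stand at 23.2% and 31.9%, from 4 to 6 at 37.5% and 33.5%, and at 10 and over at 70.3% and 10.9%.

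The balance between the directions depended on how libraries were scaled. The factors used here, TMM factors that take the bulk of genes as unchanged, lay between 0.825 and 0.865 in apex and between 1.18 and 1.27 in leaf. With library totals alone, fold changes moved towards leaf by a median of 0.55 on the log2 scale. The count was then 18303 genes, of which 22.3% were higher in apex in place of 49.4%, and 551 of the 12385 genes called under both scalings changed direction, none of them with a size above 0.41 under TMM. The share higher in apex was 41.2% with upper-quartile factors and 49.9% with DESeq2 median-ratio factors. From a level of 2 upwards the apex share rose with level under each scaling. With library totals alone it was 16.4% at levels from 2 to 4, 33.3% from 6 to 8 and 67.9% at 10 and over, but leaf genes were then the majority at each level under 10.

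Reads were concentrated in fewer genes in apex than in leaf. The gene with most reads took 4.72%, 4.31% and 4.29% of the reads in apex replicates 1, 2 and 3, and 0.959%, 0.809% and 0.792% in leaf replicates 1, 2 and 3. The 100 most abundant genes of each library took 27.2%, 26.1% and 27.6% in apex and 13.8%, 13.2% and 13.4% in leaf. The apex libraries all lay above the leaf libraries, with means of 27.0% ± 0.748 and 13.4% ± 0.311 (SD, n = 3 each). The 1000 most abundant genes took 56.1% ± 0.840 in apex and 43.6% ± 0.983 in leaf. Put as a number of genes, 50% of the reads were held by 636, 711 and 661 genes in apex and by 1326, 1464 and 1428 genes in leaf. For 90% of the reads the means were 7306 ± 149 genes in apex and 9091 ± 213 in leaf. The effective number of genes, the exponential of the Shannon entropy of the read shares, was 3658 ± 152 in apex and 7023 ± 242 in leaf. All 7 measures separated the organs without overlap (exact two-sided permutation p = 0.1 for each, and 0.1 after Benjamini-Hochberg adjustment over the 7), which is the smallest p that 3 against 3 libraries can give. The share of reads of a gene grows with transcript length as well as with transcript number. Leaving out the most abundant gene of each library left the top 100 at 23.7% in apex and 12.8% in leaf. The files do not name these genes, and whether the concentrated libraries hold the organ on their label was not tested.

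**Figure D3:**
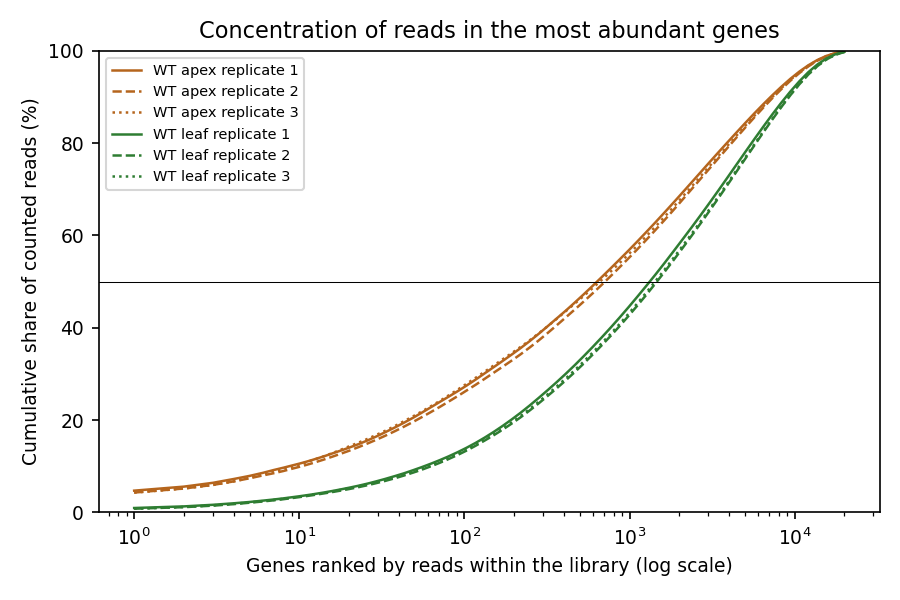
Lines give the cumulative share of counted reads (%) against the rank of genes by reads on a log axis, for the 3 WT apex libraries in orange and the 3 WT leaf libraries in green. The apex lines lie above the leaf lines and cross 50% at 636 to 711 genes, against 1326 to 1464 genes in leaf.

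The most abundant genes of apex and leaf were largely different in rank but seldom absent from the other organ. Of the 10 most abundant genes, 1 was shared; of the 100 most abundant, 38 were shared, and of the 1000 most abundant, 657. The 100 most abundant apex genes took 26.9% ± 0.761 of apex reads and 8.80% ± 0.353 of leaf reads. Among them 92 were higher in apex, 0 were higher in leaf and 8 did not pass, beside 32.1% and 32.9% of all genes tested. The 100 most abundant leaf genes took 13.4% ± 0.311 of leaf reads and 18.1% ± 0.669 of apex reads. Without the gene that led both organs, the other 99 took 12.5% ± 0.239 of leaf reads and 13.6% ± 0.426 of apex reads. Of the 100 leaf genes 33 were higher in leaf, 33 were higher in apex and 34 did not pass, close to the shares over all genes tested. These lists were ranked on the same libraries as the test, so the counts describe them and support nothing further. Under library totals the leaf direction gains, as given above. In the opposite organ the 100 apex genes had a median rank of 177, with 8 beyond 1000 and 0 beyond 5000, and the 100 leaf genes had a median rank of 140.5, with 5 beyond 1000 and 3 beyond 5000. Of the 1000 most abundant genes, 24 of the apex list and 23 of the leaf list ranked beyond 5000 in the other organ.

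One gene led both organs. Aa_G253980 on chromosome 6 (35720728 to 35722482) stood at 57225, 49786 and 51054 CPM in the 3 apex libraries and at 8123, 6347 and 6342 CPM in the 3 leaf libraries. It ranked first in apex and in leaf, the organs did not overlap, and the log2 difference of 2.93 (SE 0.16) had an edgeR adjusted p of 6.24e-09. In apex it took 4.44% ± 0.243 of the reads, against 4.39% for the 6 next genes together. Its span overlaps that of another gene model (35722427 to 35743031) by 56 bp, so reads there may be shared, and that model had 1413 reads over the apex libraries and 864 over the leaf libraries, against 3842052 and 839838 for the leading gene. The second gene of apex, on chromosome 4 (17469629 to 17472556), stood at 10571, 10160 and 10498 CPM in apex and 960, 827 and 841 CPM in leaf. Its apex replicates were close to each other, and it ranked 47th in leaf. Aa_G593160 on chromosome 3 (283964 to 288520) was the fifth gene of apex, at 7877, 8999 and 9157 CPM, and ranked 422nd in leaf at 350, 244 and 239 CPM. Its log2 fold change of 4.97 (SE 0.22, edgeR adjusted p = 1.48e-09) was the largest among the 10 leading apex genes, which were all higher in apex, by 1.53 to 4.97.

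Neighbouring genes stood among the leaders of apex. The genes on chromosome 1 at 21220050 to 21221054 and 21216948 to 21218015 were the fourth and the seventh, at 8723 ± 1539 and 6846 ± 1198 CPM in apex and 958 ± 104 and 388 ± 60.3 CPM in leaf. They lie 2034 bp apart and moved together over the apex replicates, with replicate 2 lowest for each. Whether they are near-identical copies that share reads was not tested, since no sequence was used here.

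**Figure D4:**
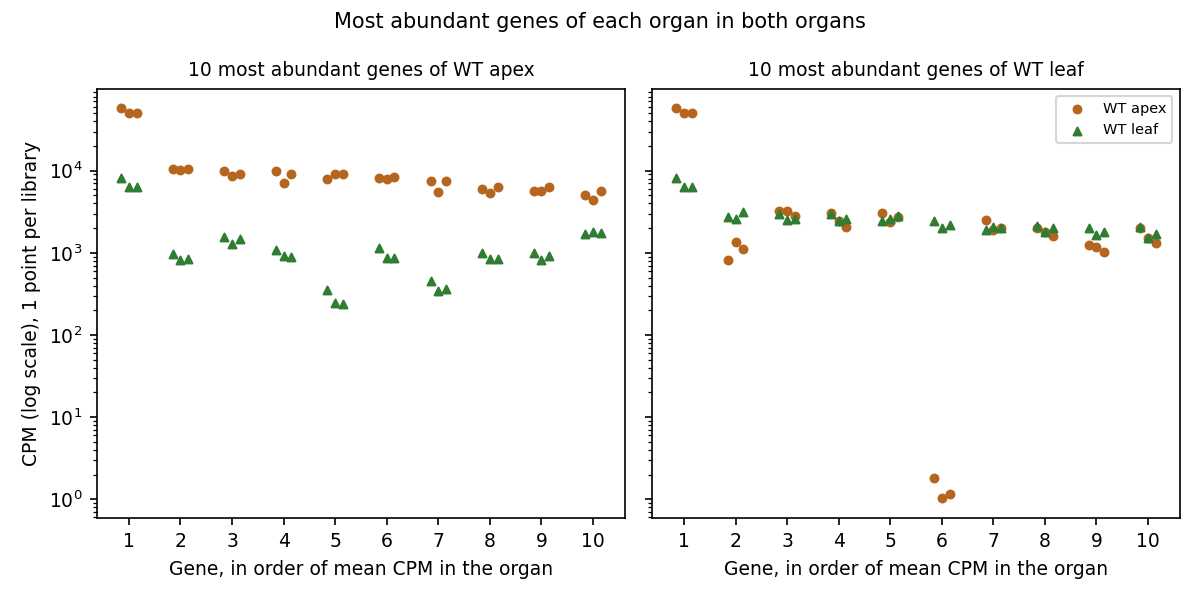
Points are CPM on a log axis in each of the 3 WT apex libraries (orange circles) and 3 WT leaf libraries (green triangles), for the 10 genes of highest mean CPM in apex (left) and in leaf (right), in order. On the left the apex points lie above the leaf points for each gene; on the right they overlap for 6 genes, and the sixth gene is close to 1 CPM in apex.

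Fewer of the leaf leaders than of the apex leaders were higher in their own organ. Of the 10 most abundant leaf genes 3 were higher in leaf, 1 was higher in apex (the gene that led both organs) and 6 did not pass the threshold. Over all genes tested 32.9% were higher in leaf and 32.1% higher in apex, so 3 of 10 is near the general share. Aa_G669290 on chromosome 4 (3307954 to 3310921) was second in leaf at 2730, 2614 and 3159 CPM and stood at 820, 1355 and 1130 CPM in apex. The organs did not overlap, and the log2 fold change of -1.36 (SE 0.20) had an edgeR adjusted p of 4.87e-05. The third leaf gene, on chromosome 8 (13280586 to 13285000), had 2959, 2532 and 2570 CPM in leaf against 3209, 3253 and 2793 CPM in apex. Its organs overlapped and it did not pass (log2 fold change 0.20, SE 0.13, edgeR adjusted p = 0.193). The ninth leaf gene, on chromosome 1 (4054736 to 4057130), was higher in leaf by a log2 fold change of -0.66 (SE 0.15, edgeR adjusted p = 0.00177), which became -1.21 with library totals alone. With library totals the 6 genes that did not pass were each called higher in leaf.

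The sixth leaf gene was of another kind, close to silent in apex. It lies on chromosome 7 (4374059 to 4374713) and had 111241, 56468 and 99886 reads in the leaf libraries against 51, 29 and 19 in the apex libraries. A second gene 2818 bp away (4377532 to 4378078), named by the rule for large falls at levels from 4 to 6, reached 1090, 844 and 903 CPM in leaf but 0.504, 0.425 and 0.422 CPM in apex. Over pooled reads its leaf level was 2115-fold the apex level (counting interval 1506 to 3072, which covers counting error only). That the 2 genes are neighbours was noticed after their values were seen.

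Among abundant genes, with levels of 5 or more, the largest differences were ranked when replicates did not overlap; 2515 genes qualified in the apex direction and 1703 in the leaf direction. The 12 largest in the apex direction spanned log2 fold changes from 4.73 to 7.11 (edgeR adjusted p from 4.64e-10 to 2.86e-07), and their genomic spans ranged from 876 to 6939 bp. The third of them, on chromosome 8 (20012448 to 20015883), stood at 3946, 5134 and 6020 CPM in apex and 161, 70.8 and 73.3 CPM in leaf. Its leaf replicate 1 was more than double the others, yet far under every apex library, and the log2 fold change was 5.63 (SE 0.46). The fourth, on chromosome 7 (10172893 to 10174827), stood at 606, 614 and 515 CPM in apex and 16.3, 11.0 and 10.8 CPM in leaf, a log2 fold change of 5.51 (SE 0.20). The eighth and the twelfth, on chromosome 3 (23398911 to 23405367) and chromosome 8 (9564898 to 9571836), were long genes at 1289 ± 104 and 1331 ± 125 CPM in apex and 42.2 ± 6.05 and 50.1 ± 6.65 CPM in leaf.

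In the leaf direction the 12 largest spanned log2 fold changes from -10.67 to -3.06 (edgeR adjusted p from 3.99e-11 to 0.000279). The first is the chromosome 7 gene near silence in apex, and the next was at -4.32. Aa_G67080 on chromosome 4 (19005675 to 19010309) had 485, 790 and 828 CPM in leaf against 41.4, 33.7 and 37.8 CPM in apex. Leaf replicate 1 was the lowest of its group, the organs did not overlap, and the log2 fold change of -4.22 (SE 0.24) had an edgeR adjusted p of 1.04e-08. The gene on chromosome 1 (20304609 to 20306463) was more even, with 476, 525 and 541 CPM in leaf against 39.1, 55.0 and 46.2 CPM in apex, with a log2 fold change of -3.46 (SE 0.18). The least certain was on chromosome 8 (5158741 to 5161745), with 77.0, 223 and 204 CPM in leaf against 8.90, 12.3 and 27.4 CPM in apex, with a log2 fold change of -3.40 (SE 0.58, edgeR adjusted p = 0.000279). Leaf replicate 1 was the lowest leaf library for 7 of these 12 genes.

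**Figure D5:**
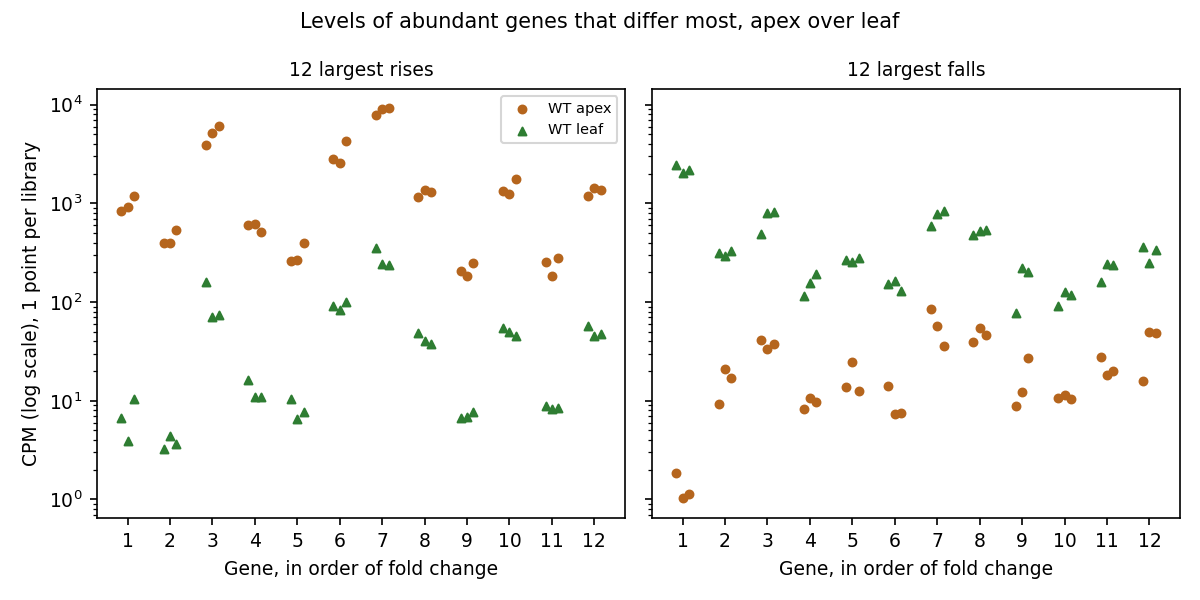
Points are CPM on a log axis in each WT apex library (orange circles) and each WT leaf library (green triangles) for the 12 largest rises (left) and the 12 largest falls (right) among abundant genes whose organs did not overlap. On the left leaf levels run from 3.23 to 350 CPM and apex levels from 184 to 9157 CPM; on the right the first gene is at 1.03 to 1.84 CPM in apex and above 2000 CPM in leaf.

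The largest near-complete differences stood at low and middle levels. A level is a mean over both organs, so near-absence from either organ pulls a gene down the scale by construction. At levels from 0 to 2, a gene on chromosome 1 (14848377 to 14851465) had 4277 reads over the apex libraries and 4 over the leaf libraries, and its pooled level was 1760-fold higher in apex (counting interval 687 to 6464). At the same level a gene on chromosome 3 (22993548 to 22994213) stood at 92.9, 92.3 and 96.2 CPM in leaf and had 2 reads over the apex libraries, a ratio of 3414 (counting interval 945 to 28193). A gene on the scaffold scaff_59520_1 (43 to 1250) had 24680 leaf reads and 3 apex reads, a ratio of 4997 (counting interval 1710 to 24232). These ratios carry counting error only. At levels from 8 to 10, by comparison, the largest fall was 5.55-fold over pooled reads, for a gene on chromosome 8 (4053431 to 4055791). It had 631 ± 82.9 CPM in leaf against 110 ± 17.2 CPM in apex. With genes placed instead by the log2 mean CPM of their higher organ, levels from 8 to 10 held other numbers at 16-fold or more. There were 7 apex and 7 leaf genes past the threshold, against 5 and 0 by the mean over both organs.

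More genes were detected in leaf than in apex. With at least 10 reads in each library as the criterion, 22159 genes were detected in leaf and 21039 in apex, 20544 in both, 1615 in leaf without reaching the criterion in apex and 495 in apex without reaching it in leaf. When libraries were thinned to the smallest total, genes with at least 10 reads numbered 22088 ± 165 in leaf and 21275 ± 78.1 in apex, without overlap (exact two-sided permutation p = 0.1, the smallest possible with 3 libraries each). When libraries were thinned instead to one TMM-scaled size, a choice made after the data were seen, the numbers drew closer, at 21447 ± 89.4 in leaf and 21266 ± 36.7 in apex, again without overlap (exact permutation p = 0.1). For genes with at least 1 read the organs then overlapped, at 25197 to 25308 genes in leaf and 24978 to 25203 in apex (exact permutation p = 0.2).

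Strict restriction to one organ was rare, and its balance depended on the limit set in the other organ. A gene was counted when it had at least 10 reads in each library of one organ and 0 reads in each library of the other. This held for 3 genes in apex and 80 genes in leaf, of 35465 genes. The limit that 0 reads allow was not the same: 3 reads over the pooled libraries correspond to 0.0251 CPM in leaf and 0.0413 CPM in apex, so a gene missing from apex could be somewhat more abundant there and still go unseen. On the TMM-scaled thinning the counts were 11 in apex and 61 in leaf. Without leaf replicate 1 the apex count was 17, without leaf replicate 3 it was 9, without apex replicate 3 it was 6 and without apex replicate 2 it was 5. The leaf count was 124 without apex replicate 1. If up to 1 read was allowed in each library of the other organ, the counts were 11 and 150, and with under 0.1 CPM there as the limit, the same level for each organ, they were 60 and 193. Under each of these limits the leaf count was the larger.

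The genes found only in apex were few and low. The first, on chromosome 7 (27136407 to 27137613), had 85, 145 and 121 reads in apex, which makes it at least 193-fold higher than in leaf. The second, on the scaffold scaff_74314_1 (1 to 721), had 34, 49 and 35 reads and was at least 64.8-fold higher. The third, on chromosome 8 (24455493 to 24460244), had 17, 41 and 25 reads and was at least 45.6-fold higher. Each also had at least 10 reads in every pep1-1 apex library, which the choice did not use, and 1 or 2 reads over the pep1-1 leaf libraries.

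The 80 genes found only in leaf had a median of 0.947 CPM in leaf, from 0.287 to 16.2 CPM, and together took 0.0177% of leaf reads. The highest, on chromosome 2 (1762367 to 1765745), had 395, 669 and 735 reads in leaf and was at least 364-fold higher there. Replicate 1 was the lowest of the 3 although it was the deepest library. Next came genes on chromosome 8 (17475504 to 17478377 and 35611277 to 35611757), with 314, 208 and 373 reads and with 343, 189 and 368 reads, at least 181-fold and 182-fold higher in leaf. These counts followed library depth closely, at 6.85 to 8.13 CPM and 6.79 to 8.03 CPM. Of the 80 genes, 66 had at least 10 reads in every pep1-1 leaf library and 48 had 0 reads over the pep1-1 apex libraries; 76 had at most 3 reads there. On chromosomes lay 73 of them and on scaffolds 7, and none overlapped another gene model.

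Some abundant genes were nearly equal in the organs. The highest among the 1793 genes whose interval lay within 0.32, on chromosome 7 (3943550 to 3946066), stood at 3044, 2405 and 2713 CPM in apex and 2411, 2579 and 2778 CPM in leaf. The organs overlapped, with a log2 fold change of 0.07 (SE 0.12, edgeR adjusted p = 0.606). A gene on chromosome 3 (5247573 to 5251147) was steadier, at 646, 622 and 635 CPM in apex and 703, 627 and 636 CPM in leaf. The 6 highest of these genes had log2 fold changes from -0.05 to 0.07 with TMM factors. All 6 were called higher in leaf with library totals alone, so nearly equal means nearly equal relative to the bulk of genes.

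Genes higher in each organ were spread over all chromosomes. The share of genes tested that were higher in apex ran from 30.4% on chromosome 3 to 33.5% on chromosome 6, and the share higher in leaf from 31.5% on chromosome 6 to 35.6% on chromosome 4. On unplaced scaffolds 26.6% of 2000 genes were higher in apex and 24.6% higher in leaf. The median log2 fold change of a chromosome ran from -0.067 to -0.014. Genes with large differences had shorter genomic spans: the median span was 2110 bp over all genes tested, 1775 bp for genes at least 4-fold higher in apex and 1775 bp for genes at least 4-fold higher in leaf. Those genes were also lower in level, with a median log2 CPM of 1.94 and -0.20 against 3.44 over all genes tested, and the part of level in the span difference was not tested. The span includes introns and is not the transcript length.

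The same contrast in the pep1-1 libraries, which share no library with the WT comparison, gave like results when each genotype was fitted alone. There 65.9% of 23003 genes passed the threshold between organs. Of 7150 genes higher in WT apex and tested in both fits, 6451 (90.2%) were also higher in pep1-1 apex past the threshold and 1 was past it in the opposite direction. Of 7781 genes higher in WT leaf, 6878 (88.4%) were also higher in pep1-1 leaf and 2 were opposite. The 100 most abundant genes took 27.0% to 30.3% of the reads in pep1-1 apex and 13.3% to 14.1% in pep1-1 leaf. The higher concentration of reads in the libraries labelled apex was found in each of the 6 apex libraries of the series.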

How the data were processed

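The authors deposited whole-number read counts per annotated transcript, not normalized, for apex and for leaf libraries. The submitters' processing notes name TopHat, bedtools and DESeq2 1.10.0, with no role. The sources used here give no genome build, annotation version or strand setting. Coordinates are therefore those of the tables, and reads of overlapping or antisense genes (279 of 35465 genes overlap in span) or near-identical copies may be shared. Per the labels' protocols, libraries were made from 4 µg of total RNA with 12 PCR cycles. The 2 tables were joined by identifier, and the transcript row with most reads over the 12 libraries stood for each gene; other rows held 5.03% to 5.65% of WT counts.

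One edgeR 4.0.16 quasi-likelihood fit (R 4.3.3) of the 12 libraries in 4 groups, with TMM factors, filterByExpr and robust dispersion, gave WT apex against WT leaf. SE is the size of the log2 fold change divided by the root of F. CPM uses TMM-scaled sizes; mean log2 CPM uses a prior count of 2. SD is between 3 libraries. Named genes were the 12 largest rises and falls at a mean log2 CPM of at least 5, the 10 most abundant genes of each organ, the highest 6 detected in one organ only or alike in both, and the largest rise and fall at each level; at most 2 identifiers each way are printed. Alternatives were other scalings, DESeq2 1.42.0, limma 3.58.1, no filter, the replicate block, other thresholds, other transcripts, thinning and each library left out. The fit was tried on simulated counts in which few genes differed, as many up as down. Most genes differ in these data, so that trial cannot test the scaling. Members and rules were chosen with earlier results of these data known. Counting intervals of pooled ratios and the floors for genes with no reads cover counting error only. Intervals of the fold change were built from the SE of the fit, so they include the spread between libraries. The labels mention no molecular identifiers.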

Additional observations from a re-analysis of the deposited data

How the results depend on the processing

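The count of 15300 genes stayed within 1.5 times in 17 of 18 alternatives; a 2-fold minimum gave 6878, by construction of a stricter threshold. It was 15438 with DESeq2, 15260 with limma-voom, 15051 with the 6 WT libraries alone and 13962 to 14551 without one library. Deviations of same-numbered apex and leaf libraries correlated at -0.0081, -0.054 and 0.045, so replicate numbers were not treated as pairing; with the replicate block the count was 15423, and 14656 with the WT libraries alone. The 3 genes found only in apex became 11 with 5 reads as the minimum, 11 with 1 read allowed in the other organ, 60 with under 0.1 CPM there, 6 after thinning to one total, 11 after thinning to one TMM-scaled size, and 4 to 17 without one library. The 80 found only in leaf became 136 with 5 reads, 50 with 20 reads, 150 with 1 read allowed, 193 with under 0.1 CPM, and 84 to 124 without one library. The measures of read concentration kept their direction in each alternative run. Of 54 named genes followed over 864 values, 17 values turned direction, all for leaf leaders that did not pass or genes named as nearly equal. They were -0.35, -0.48, -0.44 and -0.50 with library totals and -0.056, -0.014 and -0.073 with upper-quartile factors; the others came from leaving out one library, where the 7 genes concerned ran from -0.28 to 0.031, -0.058 to 0.12, -0.064 to 0.16, -0.16 to 0.044, -0.11 to 0.013, -0.046 to 0.090 and -0.10 to 0.0059. The cause of these shifts was not tested. Depth limits the genes called restricted, since 1 read decides membership.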
